A study of Mus musculus with 12 samples.

Results

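Inhibitory checkpoint receptors restrain an activated T cell, and CD28 gives the costimulatory signal that many of them oppose. The genes examined were Ctla4, Pdcd1, Btla, and Cd28, which encode receptors of the CD28 family, Lag3, Tigit, Havcr2, Cd160, and Cd101, which encode other receptors, and Cd274, which encodes PD-L1, the ligand of the receptor PD-1. These 10 genes were chosen by name, and 9 of them have a row in each of the deposited tables, among 11077 genes in the Th17 versus Th0 table and 11056 in the iTreg versus Th0 table. Havcr2, which encodes TIM-3, has no row in either table and is not analysed here. The tables hold only genes that passed the authors' filter on low CPM, counts scaled to library size.

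CTLA-4 and CD28 bind the same ligands, CD80 and CD86, on antigen-presenting cells, and CTLA-4 binds them more tightly, so it competes with CD28 and can also strip the ligands from the other cell. PD-1, which Pdcd1 encodes, and BTLA carry tyrosine motifs that recruit the phosphatases SHP-1 and SHP-2 to the T cell receptor. LAG-3 binds MHC class II, TIGIT binds CD155, and BTLA and CD160 bind HVEM. In CD4+ T cells most of these receptors appear after activation, and regulatory T cells are known for high CTLA-4.

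The RNA came from 12 cultures of naive CD4+ T cells from spleens of C57BL/6 mice aged 8 to 10 weeks, 4 for each of 3 groups. All groups, Th0 included, were activated for 3 days with plate-bound anti-CD3 and anti-CD28 at 1 µg/ml each, so every culture was stimulated through the CD28 receptor itself. Th0 cells were given no polarizing cytokine. Th17 cells received IL6 at 30 ng/ml and TGFβ1 at 5 ng/ml with neutralising antibodies against IL4 and IFNγ at 10 µg/ml each, and iTreg cells received IL2 and TGFβ1 at 10 ng/ml each per the labels, while the study's methods state a higher concentration of TGFβ1. The neutralising antibodies were only in the Th17 cultures, so their effect and that of the Th17 cytokines cannot be told apart.

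Expression was given as FPKM, a fragment count divided by transcript length and by library size. Whole reads could be recovered from the FPKM steps, and the listed genes of a library held 7271702 to 10801531 reads. Tests were run with limma on log2(FPKM + 1) for the genes that exceeded 1 FPKM in 4 or more of the 8 libraries, 10269 in the Th17 table and 10208 in the iTreg table. A gene was called differentially expressed (DE) at a Benjamini-Hochberg adjusted p under 0.05. On this scale the fold changes of weakly expressed genes come out too small. Column headings begin with M22, M29, M42, or M43, each once per group, and no source used here says what these beginnings stand for. The study's methods describe a pair-wise design, and the labels number 4 experiments with each group once. These numbers are not in the headings, so the main fit is unpaired and leaves the spread between headings in its error. Libraries of the same beginning deviated together from their group means, so every comparison was also fitted with the heading beginning as a block, and the blocked value is given where it changes the call of a named gene.

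The markers of the groups were present, with an exception. Il17f was at 281 to 788 FPKM in Th17 libraries, at 26.9 to 99.2 FPKM in iTreg libraries, and at most 0.184 FPKM in Th0 libraries. Foxp3, the lineage factor of regulatory T cells, was at 62.0 to 91.7 FPKM in iTreg libraries and at 2.04 to 7.24 FPKM in Th0 libraries. In Th17 libraries Foxp3 was at 0.499, 0.502, 4.50, and 42.5 FPKM, so the Th17 library M43_5 carried Foxp3 above all Th0 libraries. The values of the 9 genes in Th17 cells are therefore also given without it. Of 41 list genes called in Th17 cells and picked for naming, marker lists included, 38 kept the call without it, and Cd4, Il2ra, and Sit1 lost it. All 4 CD4 T cell markers were expressed, but Cd4 fell in Th17 cells from 208 ± 89.6 to 68.1 ± 24.5 FPKM (log2 fold change -1.54, adjusted p = 0.038), a call lost in 7 of 8 fits that left out a library and kept with the block (adjusted p = 0.00032). With the block 3 of these 4 markers were called lower in each comparison, and their median log2 fold change was -0.63 in Th17 and -0.49 in iTreg cells. The part of this difference in the results on the 9 genes was not tested. Of markers of other cells, Cd8b1 stayed between 2.19 and 6.60 FPKM and Cd79a, a B cell gene, between 0.505 and 3.84 FPKM over all libraries. The lists for myeloid, dendritic, and NK cells had at most 1 gene in a table, none of which passed the filter. Bulk RNA does not separate a change in the share of expressing cells from a change in RNA per cell.

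FPKM is per length, but the transcript lengths behind it are not stated, and the order of genes by FPKM depends on them. In Th0 cells, FPKM was highest for Btla at 173 ± 26.0 (SD, n = 4). It was followed by Cd28 at 135 ± 57.8, Pdcd1 at 106 ± 28.2, Lag3 at 75.2 ± 52.0, and Cd274 at 50.6 ± 3.15 FPKM. Libraries of each neighbouring pair in this series overlapped. The mean of Ctla4 was lower at 38.8 ± 8.85 FPKM, and its libraries lay below all of those of Cd274 but overlapped those of Lag3. Below Ctla4 came Tigit at 12.5 ± 3.70 and Cd160 at 9.60 ± 5.40, which overlapped, and Cd101 lay apart at the bottom with 1.16 ± 0.551 FPKM. Activated cells without polarizing cytokines thus carried Btla above all but 2.89% of the listed genes, and Cd101 below 90.2% of them.

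**Figure D1:**
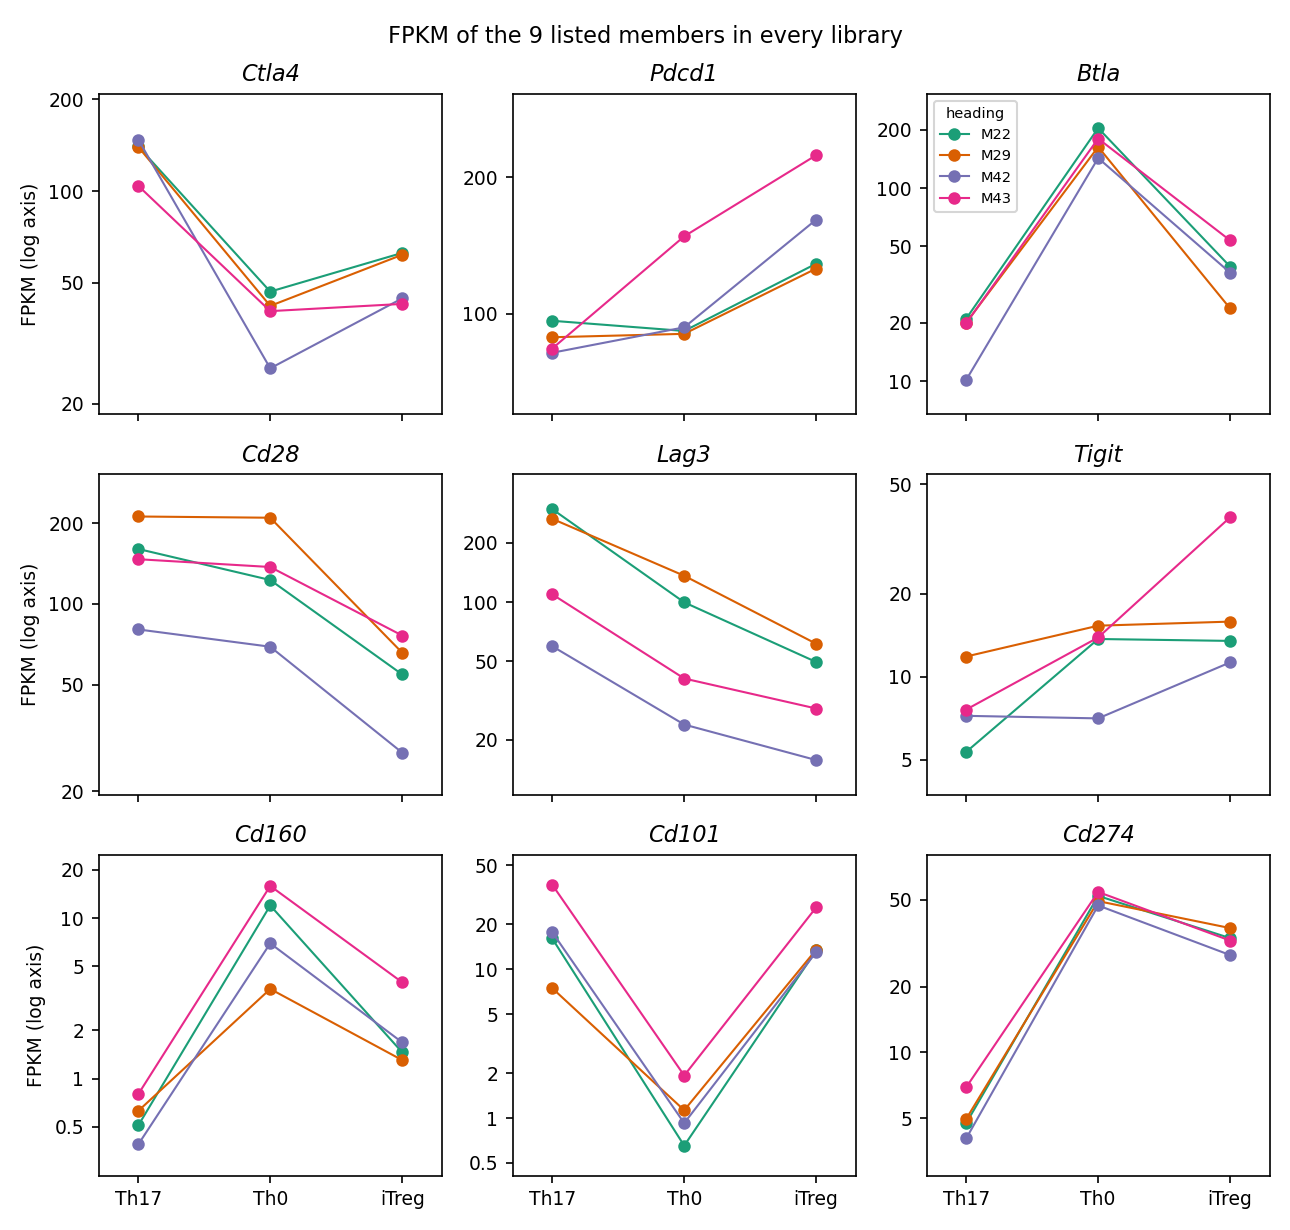
FPKM on log axes of the 9 listed genes in every library of Th17, Th0, and iTreg cells, with lines joining libraries of the same heading beginning (Th0 and Th17 values from the Th17 versus Th0 table, iTreg values from the other table). Btla, Cd160, and Cd274 peak in Th0 cells, Cd101 is lowest there, and the lines of Lag3 fall from Th17 over Th0 to iTreg cells in all 4 headings.

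Compared to Th0 cells, Th17 cells had Ctla4 and Cd101 up-regulated and Btla, Cd160, and Cd274 down-regulated. That is 2 of 9 genes called higher, where 10.6% of all tested genes were, and 3 of 9 called lower, where 8.69% were. With the heading block Lag3 was called higher as well, which makes 3 of 9 higher (19.2% of all tested genes) and 3 of 9 lower (18.6%). Pdcd1, Tigit, and Cd28 were called in neither fit. The median log2 fold change of the 9 genes was -0.24 against -0.00 over all tested genes, while the median of its size without sign was 1.77 against 0.23.

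In iTreg cells, Cd101 was up-regulated and Btla, Cd160, and Cd274 were down-regulated, so 1 of 9 genes was called higher (8.36% of all tested genes) and 3 of 9 lower (8.21%). With the heading block Ctla4 and Pdcd1 were also called higher, and Cd28 and Lag3 lower, which makes 3 of 9 higher (20.9% of all tested genes) and 5 of 9 lower (20.0%). Only Tigit was called in neither fit. The median log2 fold change of the 9 genes was -0.60 against 0.01 over all tested genes, and the median of its size was 0.78 against 0.21. Both comparisons use the same Th0 libraries, so a high or low Th0 value enters both.

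**Figure D2:**
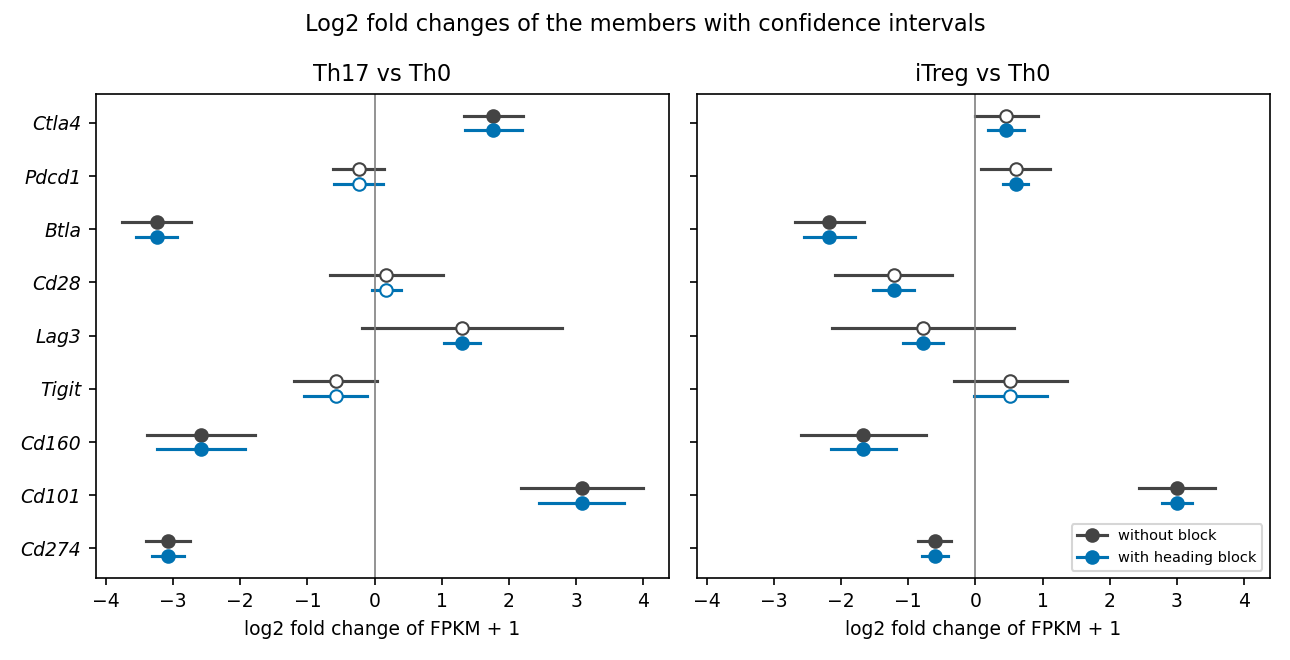
Log2 fold change of FPKM + 1 (points) with 95% intervals (bars) for the 9 genes, Th17 cells on the left and iTreg cells on the right, each against Th0 cells, without a block (grey) and with the heading beginning as a block (blue), filled where the adjusted p is under 0.05. The block leaves the fold changes where they are and narrows the intervals of Lag3 and Cd28 most, which turns Lag3 into a call in both comparisons and Cd28 into a call in iTreg cells.

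The stretches before the RefSeq transcript start (GRCm38.p6) are shown for genes that were called in the same direction in both comparisons, Btla, Cd274, and Cd160 lower and Cd101 higher, and for Ctla4, which rose in Th17 cells. RefSeq entries were matched for 8 of the 10 genes, without Lag3 and Cd28. Up to 250 bases before the start are printed 5′ to 3′ on the gene's strand, without bases that GENCODE places in a UTR of this or a neighbouring gene, and capitals mark motif matches. The motifs searched on both strands were TTCNNNGAA, bound by STAT proteins, GAAANNGAA, bound by interferon regulatory factors, and TGANTCA, bound by AP-1. Of all 32851 RefSeq windows of 250 bases before a start, 7.02%, 7.13%, and 6.75% hold them.
Btla, chr16:45224087-45224314, plus strand: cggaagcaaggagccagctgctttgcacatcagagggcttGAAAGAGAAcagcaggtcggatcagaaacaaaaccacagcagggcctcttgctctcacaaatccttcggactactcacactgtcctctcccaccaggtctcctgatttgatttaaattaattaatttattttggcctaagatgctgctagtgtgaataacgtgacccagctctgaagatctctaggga
Cd274, chr19:29367309-29367437, plus strand: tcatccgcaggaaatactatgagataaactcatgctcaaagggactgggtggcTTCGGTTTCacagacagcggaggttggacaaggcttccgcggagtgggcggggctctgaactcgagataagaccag
Cd160, chr3:96829402-96829462, minus strand: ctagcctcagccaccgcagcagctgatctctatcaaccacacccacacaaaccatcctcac
Cd101, chr3:101029557-101029803, minus strand: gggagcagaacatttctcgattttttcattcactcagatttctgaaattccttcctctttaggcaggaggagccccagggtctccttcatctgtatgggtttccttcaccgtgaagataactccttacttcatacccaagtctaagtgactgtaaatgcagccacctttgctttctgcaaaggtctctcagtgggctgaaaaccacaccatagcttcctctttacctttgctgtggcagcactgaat
Ctla4, chr1:60908775-60909024, plus strand: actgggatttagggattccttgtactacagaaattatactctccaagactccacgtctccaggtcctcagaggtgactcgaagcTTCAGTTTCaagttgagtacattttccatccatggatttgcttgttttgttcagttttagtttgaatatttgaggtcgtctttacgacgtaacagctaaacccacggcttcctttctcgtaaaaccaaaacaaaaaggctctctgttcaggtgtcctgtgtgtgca

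The windows of Btla, Cd274, and Ctla4 each hold a single match, to the interferon regulatory factor motif, at positions -210 to -202, -76 to -68, and -166 to -158 from the start. The match in Btla lies on the gene's own strand, and the others lie on the opposite strand. The window of Cd101 holds none of the 3 motifs, nor do those of Pdcd1, Tigit, and Cd160. Havcr2 has an AP-1 match at -200 to -194. A match describes the letters, not binding, and whether it bears on the expression of a gene was not tested.

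Ctla4 (ENSMUSG00000026011, chr1:60887000-60915832, plus strand) encodes the inhibitory rival of CD28. In Th0 libraries it was at 46.8, 41.97, 26.2, and 40.3 FPKM, and in Th17 libraries at 140, 140, 148, and 104 FPKM, both in the order M22, M29, M42, M43. Every Th17 library lay above every Th0 library, and the Th0 library of M42 was the lowest while the Th17 library of M42 was the highest. Group means differed 3.42 times, a log2 fold change of 1.77 ± 0.19 (SE, adjusted p = 0.00035). Within headings Ctla4 was 2.58 to 5.64 times higher. Without the Th17 library M43_5 the log2 fold change was 1.88 (adjusted p = 0.00072).

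In iTreg libraries Ctla4 was at 62.6, 61.8, 44.4, and 42.6 FPKM, and these overlapped the Th0 libraries. Each lay above its Th0 library of the same heading, by a factor from 1.07 in M43 to 1.72 in M42. Without the block the log2 fold change of 0.46 ± 0.21 was not called (adjusted p = 0.17), and with the block it was (SE 0.11, adjusted p = 0.017). This blocked call was lost without the M22 pair (adjusted p = 0.054) and without the M42 pair (adjusted p = 0.063). The group mean was 52.9 ± 10.8 FPKM in iTreg cells and 133 ± 19.5 FPKM in Th17 cells, which stand in separately scaled tables and were not tested against each other. The Th0 libraries that both tables hold differ between them by a constant factor of about 1.01.

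Cd28 (ENSMUSG00000026012, chr1:60716800-60773359, plus strand) lies next to Ctla4, its end 113641 bases before the GENCODE start of Ctla4, which lies 22025 bases before the RefSeq start used for the stretch printed above. It was at 123, 210, 69.3, and 137 FPKM in Th0 libraries and at 160, 212, 80.3, and 147 FPKM in Th17 libraries of M22, M29, M42, and M43. The groups overlapped almost fully, and the M42 libraries were the lowest in each. The log2 fold change was 0.18, with a 95% interval from -0.66 to 1.02 (adjusted p = 0.78), and it turned to -0.11 without the Th0 library M42_1 and to -0.02 without the Th17 library M29_5. Without M43_5 it was 0.16 (adjusted p = 0.84). With the block the interval ran from -0.04 to 0.39 (adjusted p = 0.17), so larger changes lay outside it.

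In iTreg libraries Cd28 was at 54.6, 65.8, 27.9, and 76.2 FPKM. Each was below its Th0 library of the same heading, which in the iTreg table were at 121, 208, 68.4, and 136 FPKM, by a factor of 0.317 in M29 to 0.562 in M43. The groups overlapped only through M42_1, the lowest Th0 library. Without the block the log2 fold change of -1.22 ± 0.38 missed the threshold (adjusted p = 0.063), and with the block it was called (SE 0.13, adjusted p = 0.00065). It was also called without M42_1 (-1.499, adjusted p = 0.027) and with libraries centred on their medians (-1.24, adjusted p = 0.048).

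Because the library scale cancels in a ratio of 2 genes of the same library, Ctla4 relative to Cd28 could be compared across all 3 groups. This ratio was chosen after the values had been seen. It was 0.381, 0.200, 0.378, and 0.294 in Th0 libraries, 0.874, 0.660, 1.84, and 0.709 in Th17 libraries, and 1.15, 0.939, 1.59, and 0.559 in iTreg libraries. All polarized libraries lay above all Th0 libraries. On the log2 scale the ratio was 1.62 higher in Th17 cells, 3.07 times, and 1.71 higher in iTreg cells, 3.26 times. Without M43_5 the Th17 value was 1.75. Since the ratio was picked for this pattern, no test is given. Th17 and iTreg libraries overlapped, and Th17 minus iTreg was -0.09 on this scale. In Th17 cells Ctla4 itself was higher and Cd28 was not called, whereas in iTreg cells the larger fold change of the pair was the lower Cd28.

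**Figure D3:**
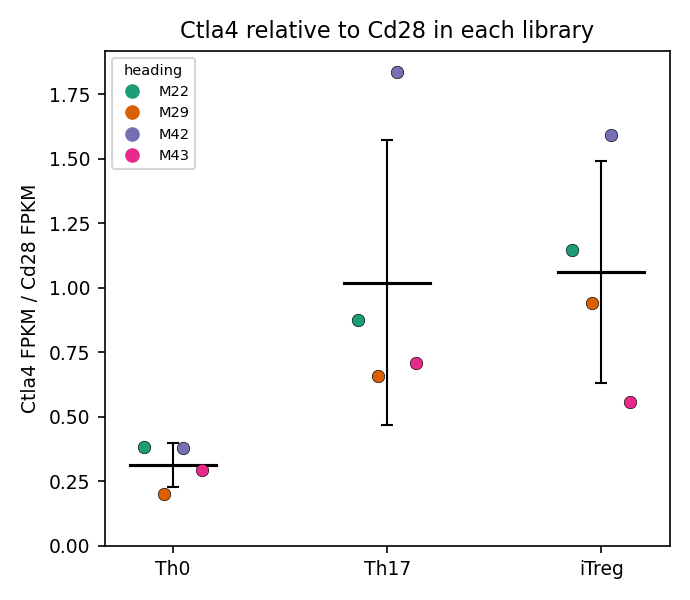
FPKM of Ctla4 divided by FPKM of Cd28 in each library of the 3 groups (points coloured by heading beginning), with the group mean (horizontal line) and SD (error bar). The 4 Th0 libraries sit between 0.200 and 0.381 and all Th17 and iTreg libraries between 0.559 and 1.84, with the M42 library highest in both polarized groups.

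Pdcd1 (ENSMUSG00000026285, chr1:94038305-94052553, minus strand) encodes PD-1. It was at 91.7, 90.4, 93.4, and 148 FPKM in Th0 libraries and at 96.6, 88.8, 82.1, and 83.9 FPKM in Th17 libraries. Only M43_1 among Th0 libraries stood out, and the groups overlapped. For Th17 cells the log2 fold change was -0.24, with a 95% interval from -0.62 to 0.15 (adjusted p = 0.37), and it moved to -0.07 without M43_1 and to -0.22 without M43_5 (adjusted p = 0.49). In iTreg libraries Pdcd1 was at 129, 126, 161, and 223 FPKM, 1.40 to 1.75 times its Th0 library of the same heading. Only M43_1, at 146 FPKM in that table, kept the groups from separating. The log2 fold change of 0.60 ± 0.23 was not called without the block (adjusted p = 0.11) and was called with it (SE 0.08, adjusted p = 0.0014), and also without M43_1 (0.77, adjusted p = 0.047). In iTreg cells Pdcd1 had the highest FPKM of the 9 genes, at 160 ± 45.3, and every iTreg library of Pdcd1 was above every iTreg library of the next gene, Cd28.

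Btla (ENSMUSG00000052013, chr16:45224315-45257670, plus strand) encodes an inhibitory receptor for HVEM. It was at 204, 163, 143, and 180 FPKM in Th0 libraries and at 21.1, 20.1, 10.2, and 19.9 FPKM in Th17 libraries. No Th17 library came near the Th0 range, and the group mean was 9.69 times lower. Its log2 fold change of -3.25 ± 0.23 (adjusted p = 4.1e-05) was number 50 in size among 10269 tested genes. Without the Th17 library M43_5 it was -3.31 (adjusted p = 0.00021). In iTreg libraries Btla was at 39.2, 23.8, 36.4, and 53.5 FPKM, again below every Th0 library, and the group mean was 4.47 times lower (log2 fold change -2.17 ± 0.23, adjusted p = 0.00039). The gene that ranked first in Th0 cells thus took position 6 of 9 in Th17 cells and position 5 in iTreg cells.

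Cd274 (ENSMUSG00000016496, chr19:29367455-29388095, plus strand) encodes PD-L1, which T cells also carry and which is a known target of IFNγ. It was at 52.0, 49.2, 47.0, and 54.2 FPKM in Th0 libraries, the tightest of the 9 genes in that group with a highest value 1.15 times the lowest. In Th17 libraries it was at 4.75, 4.96, 4.04, and 6.93 FPKM, from 129 to 227 reads. The groups lay far apart, with a group mean 9.78 times lower in Th17 cells and a log2 fold change of -3.08 ± 0.14 (adjusted p = 4.4e-06, and -3.21 with adjusted p = 6.2e-06 without M43_5). In iTreg libraries Cd274 was at 33.3, 37.0, 27.9, and 32.5 FPKM, also below every Th0 library, but only 1.53 times lower in the mean (log2 fold change -0.60 ± 0.11, adjusted p = 0.0059). Of its exonic bases, 14.1% (511 of 3622) are shared with an annotated gene on the other strand. The authors counted without strand and in union mode with an annotation that is not stated. How reads on the shared bases were counted is therefore not known.

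Cd160 (ENSMUSG00000038304, chr3:96798763-96829351, minus strand) encodes a further receptor for HVEM. It was at 12.0, 3.62, 6.96, and 15.8 FPKM in Th0 libraries and at 0.510, 0.629, 0.389, and 0.799 FPKM in Th17 libraries, the latter from only 9 to 19 reads per library. The groups did not overlap, with a mean 16.5 times lower in Th17 cells (log2 fold change -2.59 ± 0.36, adjusted p = 0.0012, and -2.65 with adjusted p = 0.0042 without M43_5). In iTreg libraries it was at 1.46, 1.302, 1.68, and 3.98 FPKM, and M43_4 exceeded the lowest Th0 library, M29_1, which was at 3.58 FPKM in that table. The log2 fold change of -1.67 ± 0.41 was called (adjusted p = 0.025), but it lost the call in 5 of 8 fits that left out a library (adjusted p = 0.056 to 0.071), those without M22_1, M43_1, M22_4, M29_4, or M42_4. With the block it was called (adjusted p = 0.0011), also with each of the 4 heading pairs left out in turn. Of its exonic bases, 2.57% are shared with Pdzk1 on the other strand.

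Cd101 (ENSMUSG00000086564, chr3:100993529-101029556, minus strand) encodes an immunoglobulin superfamily receptor that dampens T cell activation. It was at 0.653, 1.13, 0.926, and 1.93 FPKM in Th0 libraries, at 16.1, 7.46, 17.7, and 36.9 FPKM in Th17 libraries, and at 13.4, 13.5, 13.03, and 26.0 FPKM in iTreg libraries. The M43 library was the highest in each group, and every polarized library lay above every Th0 library. The Th0 values rest on 16 to 59 reads per library. Group means were 16.8 times higher in Th17 cells (log2 fold change 3.08 ± 0.40, adjusted p = 0.00091) and 14.4 times higher in iTreg cells (2.998 ± 0.25, adjusted p = 0.00013). Without M43_5 the Th17 value was 2.72 (adjusted p = 0.001). Cd101 was the gene with the largest fold change of the 9 in iTreg cells, number 44 in size among 10208 tested genes.

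Lag3 (ENSMUSG00000030124, chr6:124904361-124911705, minus strand) encodes a receptor for MHC class II. It was at 99.8, 136, 23.9, and 41.0 FPKM in Th0 libraries and at 297, 265, 59.7, and 110 FPKM in Th17 libraries of M22, M29, M42, and M43. M22 and M29 were high and M42 and M43 low in both groups, so the groups overlapped although each Th17 library was 1.95 to 2.97 times its Th0 library of the same heading. Without the block the log2 fold change of 1.301 ± 0.65 was not called (adjusted p = 0.21). With the block the same value had an SE of 0.11 (adjusted p = 0.00036), and without the M43 pair, which holds the Th17 library with Foxp3, it was 1.27 (adjusted p = 0.0032).

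In iTreg libraries Lag3 was at 49.7, 61.5, 15.8, and 28.8 FPKM, each below its Th0 library, by a factor of 0.456 to 0.713. Without the block the log2 fold change of -0.78 ± 0.59 was not called (adjusted p = 0.43), and with it the value was called (SE 0.12, adjusted p = 0.0031), also with each of the 4 heading pairs left out in turn. In each of the 4 headings Lag3 thus fell from the Th17 over the Th0 to the iTreg library, and the spread between headings within a group, up to 5.71 times, was larger than the step between groups.

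Tigit (ENSMUSG00000071552, chr16:43648867-43664146, minus strand) encodes a receptor for CD155. It was at 13.7, 15.3, 7.07, and 13.9 FPKM in Th0 libraries, at 5.34, 11.9, 7.22, and 7.61 FPKM in Th17 libraries, and at 13.5, 15.9, 11.3, and 37.9 FPKM in iTreg libraries. All 3 groups overlapped, and the iTreg library M43_4 was far above the rest. Its log2 fold change was -0.58 in Th17 cells, with a 95% interval from -1.20 to 0.04 (adjusted p = 0.18, and 0.056 with the block), and 0.52 in iTreg cells, with an interval from -0.32 to 1.36 (adjusted p = 0.40, and 0.11 with the block). With the block the Th17 interval, which is not adjusted for the number of genes, ran from -1.05 to -0.11. The Th17 value was called without the Th0 library M42_1 (-0.81, adjusted p = 0.047) and was -0.58 without M43_5 (adjusted p = 0.26). The iTreg value moved to 0.16 without M43_4 (adjusted p = 0.75), and with the block to 0.22 without the M43 pair (adjusted p = 0.28). Reads ranged from 42 to 327 per library.

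**Figure D4:**
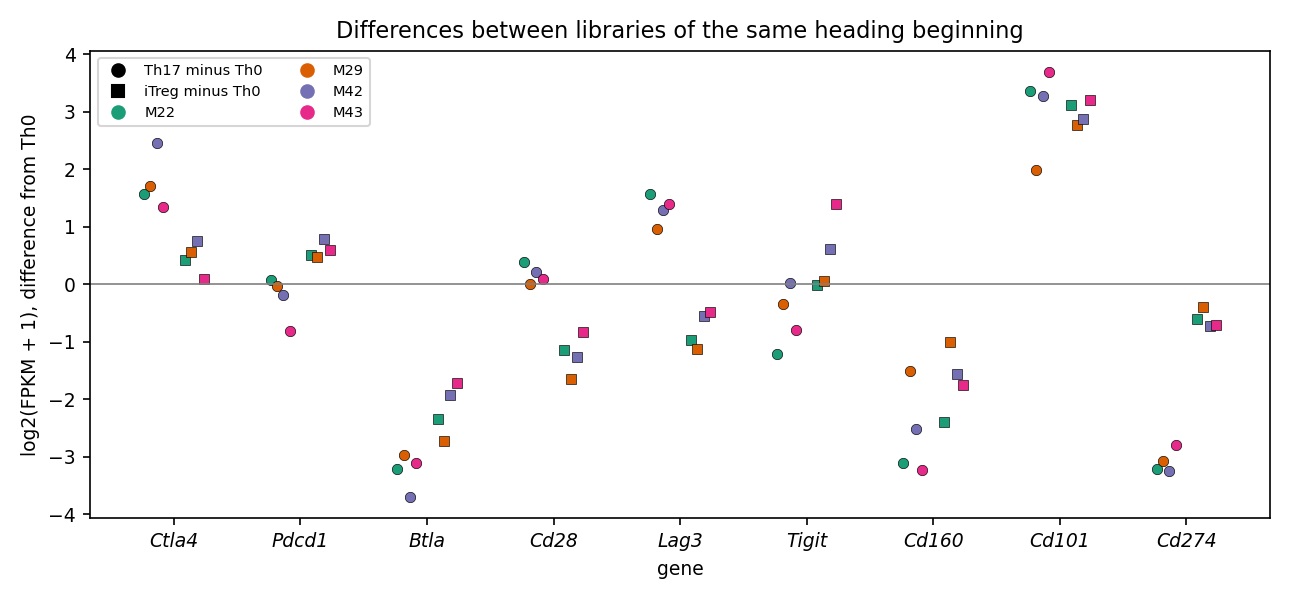
Difference in log2(FPKM + 1) between the polarized and the Th0 library of the same heading beginning, for the 9 genes, with circles for Th17 minus Th0, squares for iTreg minus Th0, and colours for the 4 beginnings. All 4 circles of Lag3 and Cd28 lie above 0, that of Cd28 in M29 by only 0.02, and all 4 squares below 0. Btla, Cd160, and Cd274 lie below 0 throughout, and for Pdcd1 and for Tigit 3 of 4 circles lie below 0.

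For 4 of the genes called in Th17 cells, the tested genes with the most similar pattern were sought by the root mean square (RMS) difference of log2(FPKM + 1), centred per gene, over the 8 libraries of the Th17 table. For Ctla4 these were Runx2, Galnt12, and Plin2 (0.18 to 0.19). For Btla the nearest of all tested genes was Cd274 (0.26), followed by Gramd1b (0.33) and Slamf6 (0.34). For Cd274 they were Fasl (0.18), Gramd1b (0.19), and Stap1 (0.25), and for Cd101 Syp (0.31), Sgk1 (0.37), and Sema7a (0.39). Gramd1b is among the nearest genes of both Btla and Cd274, and since the group difference dominates this measure, such genes share mainly the size of their fold change.

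For the lists that follow, the shares of all tested genes are the background, and no list was tested against them. In Th17 cells 10.6% were called higher and 8.69% lower (19.2% and 18.6% with the block). In iTreg cells 8.36% were called higher and 8.21% lower (20.9% and 20.0% with the block). Of 18 other costimulatory or inhibitory receptors, 13 were tested. In Th17 cells 1 was called higher and 3 lower, and with the block 2 and 4. Cd226, the activating receptor that competes with TIGIT for CD155, fell from 14.4 ± 5.65 to 0.413 ± 0.238 FPKM (log2 fold change -3.39, adjusted p = 5.9e-05). Slamf6, a SLAM family receptor (-2.88, adjusted p = 0.00021), and Cd40lg, the CD40 ligand of helper T cells (-2.81, adjusted p = 0.00032), also fell, and Sit1, a signalling adaptor, rose (0.64, adjusted p = 0.039). In iTreg cells Cd2, an adhesion receptor (1.10, adjusted p = 0.012), and Sit1 (0.85, adjusted p = 0.016) rose. Slamf6 (-2.96, adjusted p = 5.7e-05) and the costimulatory receptor Cd27 (-1.23, adjusted p = 0.042) fell there, which is 2 of 13 in each direction, and 4 and 8 with the block. Cd226 was not called in iTreg cells without the block (-0.63, adjusted p = 0.35) and was called lower with it (adjusted p = 0.012), as was Cd40lg (-1.05, adjusted p = 0.073, and 0.00065 with the block). The median of the list was -0.06 in Th17 and -0.36 in iTreg cells.

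Of 15 ligands of these receptors, 7 were tested. In Th17 cells Lgals3, which encodes galectin-3, a ligand of LAG-3, rose from 15.7 ± 5.58 to 265 ± 195 FPKM (log2 fold change 3.65, adjusted p = 0.0028), and Tnfrsf14, which encodes HVEM, the ligand of BTLA and CD160, rose from 36.8 ± 11.6 to 108 ± 26.2 FPKM (1.56, adjusted p = 0.0041). Pdcd1lg2, which encodes PD-L2, fell (-1.76, adjusted p = 0.00025), as Cd274 did. With the block Hmgb1, a ligand of TIM-3, was called lower as well (-0.56, adjusted p = 0.051, and 0.0049 with the block). In iTreg cells Lgals3 rose (2.48, adjusted p = 0.0006), and Pdcd1lg2 (-0.48, adjusted p = 0.048) and Hmgb1 (-0.50, adjusted p = 0.046) fell, both of which lost the call under a pseudocount of 0.1 and with libraries centred on their medians. Tnfrsf14 was at 36.4 ± 11.5 FPKM in Th0 and 27.0 ± 7.48 FPKM in iTreg cells (-0.40, adjusted p = 0.38, and 0.03 with the block). HVEM mRNA thus had opposite signs in the 2 comparisons, in both of which Btla and Cd160 were called lower. The median was -0.44 in Th17 and -0.20 in iTreg cells. With the block 2 ligands were higher and 4 lower in Th17 cells, and 1 and 3 in iTreg cells.

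Of 19 genes for signalling proteins that inhibitory receptors use, 18 were tested, with a median log2 fold change of -0.28 in Th17 and -0.02 in iTreg cells. Of these, 4 fell and none rose in Th17 cells (8 and 1 with the block), and 4 fell and 1 rose in iTreg cells (7 and 3 with the block). Ptpn11 (SHP-2) fell in both, by 1.01 on the log2 scale in Th17 cells (adjusted p = 0.00041) and by 0.92 in iTreg cells (adjusted p = 0.0023). Ptpn6 (SHP-1) fell in Th17 cells (-0.79, adjusted p = 0.0043), with Dgkz (-1.002, adjusted p = 0.014) and Ubash3a (-0.56, adjusted p = 0.032). In iTreg cells the ubiquitin ligase gene Cblb (-1.12, adjusted p = 0.0029) and the diacylglycerol kinase genes Dgkz (-0.74, adjusted p = 0.031) and Dgka (-0.61, adjusted p = 0.030) fell, and Inpp5d (SHIP-1) rose (0.54, adjusted p = 0.0027). With the block, Ptpn6 was called lower in iTreg cells too (-0.37, adjusted p = 0.14, and 0.0051 with the block), as was Dgka in Th17 cells (-0.70, adjusted p = 0.089, and 0.031 with the block).

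Of 21 signalling genes downstream of CD28, all tested, 2 rose and 5 fell in Th17 cells, and 4 rose and 7 fell in iTreg cells (5 and 6, and 5 and 9, with the block). The median log2 fold change was 0.10 and -0.11. Malt1, the paracaspase that carries the CD28 signal to NF-κB, rose from 104 ± 18.2 to 396 ± 34.1 FPKM in Th17 cells (1.94, adjusted p = 5.9e-05) and to 195 ± 18.7 FPKM in iTreg cells (0.94, adjusted p = 0.0031). Its partner Bcl10 fell in both (-0.70, adjusted p = 0.0012, and -0.66, adjusted p = 0.0035), as did Rel, the NF-κB subunit c-Rel (-1.54, adjusted p = 0.00027, and -0.62, adjusted p = 0.018). Vav1 rose in both (0.71, adjusted p = 0.0013, and 0.55, adjusted p = 0.0046). Pik3r1 (1.41, adjusted p = 6.2e-05) and the adaptor gene Grap2 (1.04, adjusted p = 0.0015) rose in iTreg cells, and Themis fell in Th17 cells (-1.06, adjusted p = 0.0081). Pik3r1 was called in Th17 cells with the block alone (0.60, adjusted p = 0.12, and 0.036 with the block).

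Transcription factors known to act on these receptor genes moved in both directions, with a median of 0.48 in Th17 and 0.09 in iTreg cells. Of 19 tested in Th17 cells, 7 rose and 3 fell (10 and 5 with the block), and of 17 tested in iTreg cells, 6 rose and 3 fell (6 and 6). Maf, which encodes c-Maf, rose from 5.52 ± 5.21 to 234 ± 22.9 FPKM in Th17 cells (5.46, adjusted p = 7e-05) and to 95.5 ± 16.7 FPKM in iTreg cells (4.18, adjusted p = 0.00041). Tox2 (4.87, adjusted p = 4.1e-05), Ahr (4.86, adjusted p = 1.7e-06), and Batf (2.26, adjusted p = 0.00041) rose in Th17 cells. The activation-induced genes Nr4a3 (-2.19, adjusted p = 0.0034), Egr3 (-2.06, adjusted p = 0.0001), and Nr4a1 (-0.75, adjusted p = 0.023) fell there. In iTreg cells Foxp3 (3.81, adjusted p = 0.00013), Ahr (2.18, adjusted p = 0.00016), and Foxo1 (1.11, adjusted p = 9.4e-05) rose, and Egr3 (-1.45, adjusted p = 0.0003), Tox (-0.50, adjusted p = 0.038), and Nfatc1 (-0.47, adjusted p = 0.034) fell. Foxo1 was called higher in Th17 cells as well, with a larger fold change (1.90, adjusted p = 6.1e-06). Tox was called lower in Th17 cells with the block alone (-0.44, adjusted p = 0.12, and 0.014 with the block).

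The interferon-gamma list, to whose targets Cd274 belongs, held genes called in both directions, with a median log2 fold change of -0.24 in Th17 and -0.07 in iTreg cells. Of 26 tested genes, 4 rose and 8 fell in Th17 cells, and 5 rose and 5 fell in iTreg cells (6 and 12, and 6 and 8, with the block). Some guanylate-binding proteins fell in both, among them Gbp9 (-1.62, adjusted p = 0.00011, and -2.001, adjusted p = 0.0064), Gbp8 (-1.61, adjusted p = 0.001, and -1.83, adjusted p = 0.018), and Gbp7 (-1.47, adjusted p = 0.0037, and -1.25, adjusted p = 0.017). Gbp4 fell in Th17 cells (-1.83, adjusted p = 0.00031). Socs1, a feedback inhibitor of cytokine signalling (1.72, adjusted p = 0.0006), and Ifngr2, a subunit of the IFNγ receptor (1.13, adjusted p = 0.0015), rose in Th17 cells, so signalling components and targets of the pathway were called in opposite directions. In iTreg cells Irf8 rose from 7.70 ± 5.20 to 178 ± 52.5 FPKM (4.57, adjusted p = 0.00045), with Irgm1 (1.37, adjusted p = 0.0093), Socs1 (1.29, adjusted p = 0.0019), and Ifngr2 (1.17, adjusted p = 0.0015). The block added Gbp4 in iTreg cells (-1.81, adjusted p = 0.086, and 0.016 with the block) and Irgm1 in Th17 cells (0.39, adjusted p = 0.21, and 0.042 with the block).

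Genes that act on CTLA-4 and PD-L1 protein were mostly not called, with medians between -0.09 and 0.17 in both lists and comparisons. Of 9 tested CTLA-4 trafficking genes, Trat1, which encodes the adaptor TRIM that carries CTLA-4 to the surface, fell in Th17 cells from 18.5 ± 5.46 to 2.98 ± 1.35 FPKM (-2.31, adjusted p = 0.00059). Arf1 rose there (0.35, adjusted p = 0.038), and in iTreg cells Rab11a was the only gene called (0.54, adjusted p = 0.013). With the block 3 rose and 1 fell in each comparison, among them Rab11a in Th17 cells (0.32, adjusted p = 0.095, and 0.036 with the block) and Trat1 in iTreg cells (-0.84, adjusted p = 0.07, and 0.003 with the block). Of 8 tested genes for PD-L1 stability, none was called in Th17 cells with or without the block, where Cd274 mRNA itself had a log2 fold change of -3.08. In iTreg cells Cmtm6, which protects PD-L1 from degradation, rose from 48.9 ± 13.3 to 94.95 ± 28.0 FPKM (0.93, adjusted p = 0.044) while Cd274 fell, and Cmtm4 fell (-0.53, adjusted p = 0.0073). Some of the calls in these lists lay near the threshold and were lost in fits with a library fewer, at fold changes of the same sign. For Arf1 these ran from 0.31 to 0.39, and for Tox in iTreg cells from -0.58 to -0.43. In Th17 cells Arf1, Nr4a1, Sit1, and Ubash3a lost their call in 4 to 7 of the 8 fits that left out a library (adjusted p up to 0.11). In iTreg cells Cd27, Cmtm6, Dgka, Dgkz, Hmgb1, Nfatc1, Pdcd1lg2, and Tox did so in 4 to 7 fits (up to 0.12), Gbp8 and Rel in 2, and Gbp7 in 1. With the block all of them were called.

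**Figure D5:**
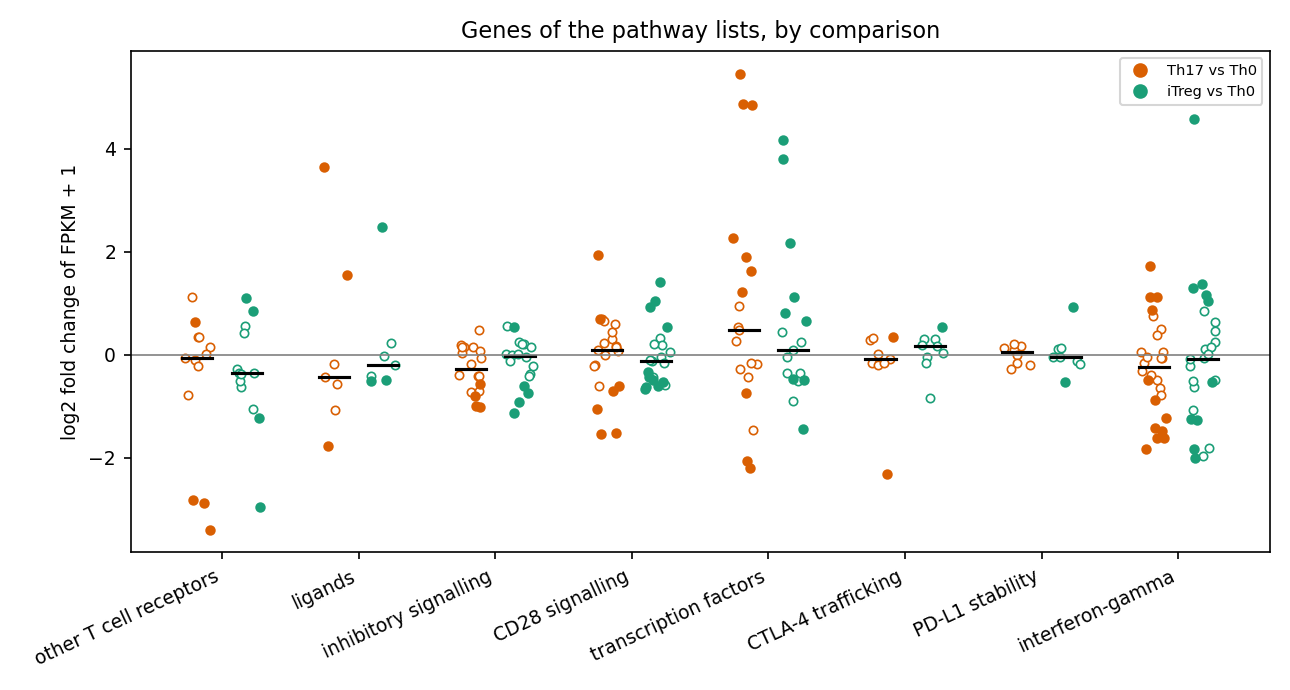
Log2 fold change of FPKM + 1 of each tested gene of 8 pathway lists in Th17 (orange) and iTreg cells (green), each against Th0 cells, filled where the adjusted p without a block is under 0.05, with the list median as a black line. The transcription factors hold the largest rises in Th17 cells, up to 5.46 for Maf. In iTreg cells the largest rise is 4.57 for Irf8 of the interferon-gamma list, above 4.18 for Maf. The list medians run from -0.44 to 0.48.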

How the data were processed

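RNA-seq values of 12 libraries were used, 4 each from Th0, Th17, and iTreg cells, grouped by the sample labels. The authors aligned reads with TopHat2 2.0.14 to mm10 (processing notes), counted them on exons with HTSeq without strand, dropped genes with low CPM, and deposited FPKM per gene and library, scaled separately in a Th17 and an iTreg table. How FPKM was computed and which annotation was used are not stated. Each table also holds 5 columns of their own edgeR comparison (fold change, average expression, test statistic, p-value, FDR), which were not used.

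Groups were compared within each table with limma 3.58.1 (R 4.3.3) on log2(FPKM + 1), after a filter of more than 1 FPKM in 4 libraries, with Benjamini-Hochberg adjustment over all tested genes. Whole reads were recovered from FPKM steps by a search that accepted only values within 0.01 of a whole number. It gave reads for 100% of genes. For the Th0 libraries, 99.3% of the 10886 genes in both tables had the same reads in each. Replicates share no number between labels and column headings. The heading beginnings were therefore checked: deviations from group means correlated at 0.450 to 0.784 (Th17) and 0.662 to 0.769 (iTreg) for the 4 library pairs with the same beginning, against at most 0.434 and 0.248 for the others, and they served as a block in an alternative fit. Whether a beginning marks an experiment is open. Two-sided exact permutation tests of single members (Python 3.11.15) can go no lower than p = 0.029 with 4 against 4 libraries.

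The fits were tested on simulated data with known changes. Without the block they called 60% of 2-fold changes in the Th17 table and 69.4% in the iTreg table. On data simulated with a shift shared by each heading, the blocked fits called 77.1% and 83%. Of the genes called, 4.40% to 5.37% were false. A gene that was not called may therefore still have changed 2-fold. The genes and gene lists were chosen with earlier results of these data known. The text names all members and, per list, up to 4 called genes with the largest fold change in each direction, except that some list genes are counted but not reported here by name. Coordinates are from GENCODE (GRCm38). Sensitivity fits changed the pseudocount, filter, variance trend, centring, block, threshold, and libraries, and limma-voom on recovered reads was added after the data were seen.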

Additional observations from a re-analysis of the deposited data

Results flagged for a closer look

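Each of the 9 genes was examined in each of the 3 groups of 4 libraries. In these sets of 4 libraries, 4 values lay far from the other 3, where about 1 in 20 sets is marked by chance. Pdcd1 was at 148 FPKM in the Th0 library M43_1, with the other Th0 libraries between 90.4 and 93.4 FPKM. Btla was at 10.2 FPKM in the Th17 library M42_5, below the other Th17 libraries at 19.9 to 21.1 FPKM. In the iTreg library M43_4, Cd160 was at 3.98 FPKM and Cd101 at 26.0 FPKM, both above the other iTreg libraries, which reached 1.68 and 13.5 FPKM.

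In all 4 headings the Th17 library lay above and the iTreg library below its Th0 library for Lag3 and for Cd28. For Lag3 the log2 fold change was 1.301 in Th17 and -0.78 in iTreg cells, and for Cd28 it was 0.18 and -1.22. Cd28 in Th17 cells passed the test in no fit with all libraries (adjusted p = 0.78, and 0.17 with the block), its difference in M29 was only 0.02, and its sign turned without M42_1 or M29_5. The difference between the comparisons was not tested. They share the Th0 libraries, and the tables were scaled separately, with a constant factor of about 1.01 between them for those libraries.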

How the results depend on the processing

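The 5 genes called in Th17 cells and the 4 called in iTreg cells kept their direction under every alternative that was run. With the heading beginning as a replicate block, the genes called rose from 1983 to 3882 in Th17 cells and from 1691 to 4170 in iTreg cells, and the members called from 5 to 6 and from 4 to 8. The fit of limma-voom on recovered reads with this block, added after the data were seen, called 4049 genes in Th17 and 4478 in iTreg cells, with 6 and 9 members. That fit also called Tigit in iTreg cells (log2 fold change 0.66, adjusted p = 0.048). At an FDR of 0.01 there were 995 genes in Th17 cells and 778 in iTreg cells, and among members only Cd160 in iTreg cells was lost. Leaving out a library gave 1364 to 2237 genes in Th17 and 1140 to 1521 in iTreg cells, with 5 to 6 and 3 to 5 members. Cd28 in Th17 cells ran from -0.11 to 0.45 on the log2 scale over these fits and is the only member that changed sign. With the block, leaving out both libraries of a heading in turn gave 2578 to 3585 genes (6 to 7 members) in Th17 cells, the lowest without M22, and 2892 to 3748 genes (7 to 8 members) in iTreg cells. A pseudocount of 0.1, no filter, limma-trend, and limma-voom without the block changed no call of a member, and centring on medians changed only Cd28 in iTreg cells. Depth limits Cd160 in Th17 cells and Cd101 in Th0 cells, which rest on as few as 9 and 16 reads.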
